A study of Arabidopsis thaliana with 96 samples.

Results

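GID1A, GID1B and GID1C are the gibberellin receptor genes of Arabidopsis thaliana. Each was represented on the array by 1 probe set that the array annotation pairs with exactly 1 gene, namely 259302_at for GID1A (AT3G05120), 251200_at for GID1B (AT3G63010) and 246782_at for GID1C (AT5G27320). They make up 3 of the 13356 genes measured by such probe sets, and all 3 were among the 7281 genes bright enough to be tested.

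Gibberellins are diterpenoid hormones that promote germination, stem and root elongation and the transition to flowering. A bioactive gibberellin binds a soluble GID1 receptor, the complex binds a DELLA protein, a nuclear repressor of growth, and the F-box protein SLY1 then directs that DELLA to degradation by the proteasome. In the root, gibberellin signalling in the endodermis is known to set the rate of organ growth, and DELLA proteins are known to restrain growth under salt. The 3 receptors overlap in function, and root and shoot growth fail in plants that lack all of them.

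The study measured RNA from root cells on 96 Affymetrix ATH1 arrays. Roots of Columbia seedlings, 5 to 7 days after germination, were turned into protoplasts (cells stripped of their walls by enzymes) and sorted for green fluorescent protein (GFP) driven by WER for epidermis, COR for cortex, SCR for endodermis or WOL for stele, the central vascular cylinder. Seedlings of each reporter line were kept on standard medium and taken after 1 or 48 h, or were moved to the same medium with 140 mM NaCl for 1, 3, 8, 20, 32 or 48 h. This gave 8 conditions in each of 4 cell types, 32 groups in all, with 3 arrays each. All groups share the protoplasting and the sort for GFP, and the groups of a cell type share its reporter. Each cell type rests on 1 reporter line, so the line and the cell type cannot be told apart, and in sorted bulk RNA fewer cells of a kind and less RNA per cell cannot be told apart.

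All values are log2 signals as the authors deposited them, so a difference of 1 is 2-fold. Array medians lay between 4.51 and 4.97, and arrays of 1 group correlated at 0.958 to 0.998 over all probe sets. Over the 7281 tested genes, which leave out the dim probe sets, 2 epidermis arrays of standard 48 h and 1 stele array of standard 1 h had a mean correlation with their group under 0.95 (0.940, 0.943 and 0.933). The sorts could be checked against few markers. The cortex marker AT1G62510 averaged 10.34 in cortex, 9.62 in endodermis, 8.18 in stele and 4.99 in epidermis in standard medium. GSO1, a receptor kinase of the endodermal barrier, averaged 10.32 in endodermis, 8.72 in cortex, 8.62 in stele and 4.62 in epidermis. Both were thus also bright outside the type they mark. AT1G09750, another cortex marker, averaged 7.21 in cortex, 5.67 in endodermis and 3.44 in stele, while the cortex marker CO2 was dim everywhere (2.96 to 2.98). The root hair expansins EXPA7 and EXPA18 were as bright in the stele arrays (9.99 and 9.65) as in the epidermis arrays (9.16 and 8.53), and the stele gene LHW was dim in every type (4.18 to 4.57), so neither separates epidermis or stele from the rest. The labels do not say whether the 3 arrays of a group came from separate cultures, so p-values measure the spread between these arrays.

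The receptors differed in how far their signal stood above the bottom of the scale, which sets how well a change can be seen. The GID1B signal lay above the array's own median on 96 of 96 arrays and the GID1A signal on 94 of 96, the exceptions being 2 epidermis arrays. GID1C did so on 32 of 96, of which 22 were endodermis arrays. Signals of different probe sets depend on the probes, so the receptors are compared below in their changes and not in their levels.

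**Figure D1:**
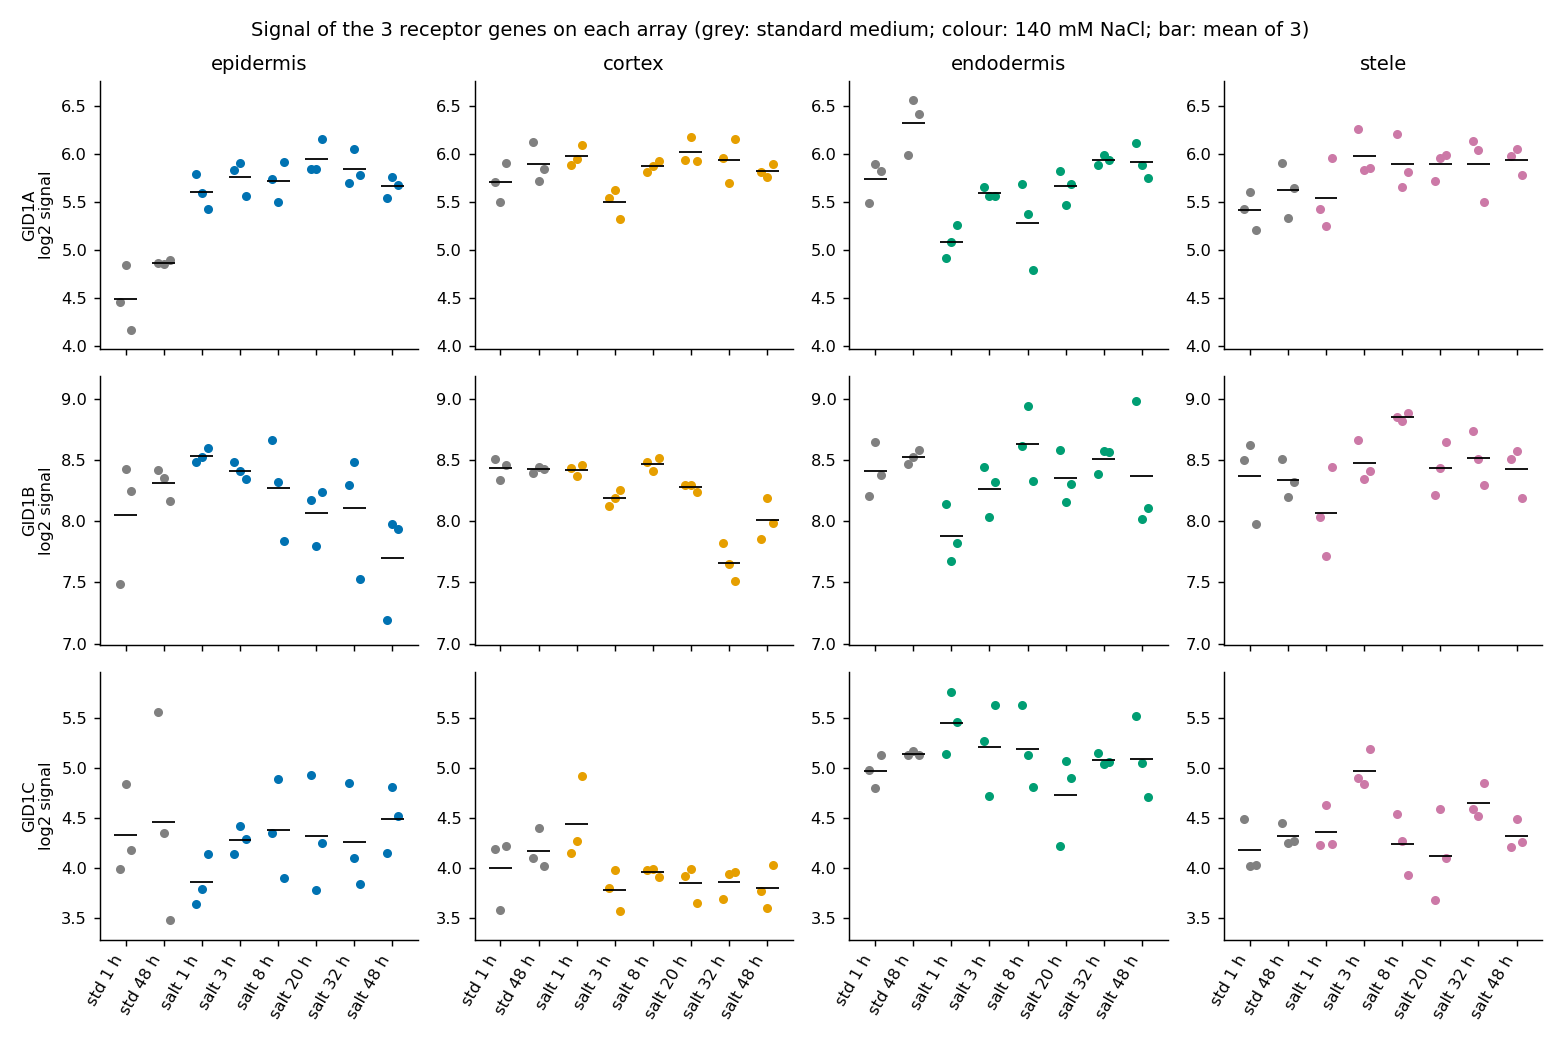
Log2 signal (vertical axis) of GID1A, GID1B and GID1C (rows) on each of the 96 arrays by condition (horizontal axis) in the 4 cell types (columns). Each point is 1 array, grey for standard medium and coloured for 140 mM NaCl, and each bar is the mean of 3. All 18 salt arrays of epidermis lie above the 6 standard arrays for GID1A, and the endodermis column holds the highest GID1C values.

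The first question was where each receptor is expressed in unstressed roots. GID1A was lowest in epidermis. Its epidermal signals in standard medium were 4.45, 4.84 and 4.16 at 1 h and 4.86, 4.85 and 4.89 at 48 h. Cortex arrays read 5.71, 5.50 and 5.91 at 1 h and 6.12, 5.72 and 5.84 at 48 h. Endodermis arrays read 5.49, 5.89 and 5.82 at 1 h and 5.99, 6.56 and 6.42 at 48 h. Every one of these 12 cortex and endodermis arrays was brighter than every epidermis array, and the same was true of the 6 stele arrays, which ran from 5.21 to 5.91.

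The means over both standard groups ordered the cell types as endodermis (6.03 ± 0.40, SD, n = 6), cortex (5.80 ± 0.21), stele (5.52 ± 0.25) and epidermis (4.68 ± 0.30). For neighbours at the top of that order no difference passed. Cortex minus endodermis was -0.23 (limma, adjusted p = 0.135) and cortex minus stele was 0.28 (adjusted p = 0.058). The endodermis lay 0.51 above the stele (adjusted p = 0.000536), and the epidermis lay below the stele by a difference of -0.84 (adjusted p = 2.06e-08). Of the 6 pairs of cell types tested for each gene, 55.6% of pairs over all genes passed, where "passed" means a Benjamini-Hochberg adjusted p under 0.05.

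Set against the mean of the other 3 types, GID1A in epidermis differed by -1.11 (SE 0.10, adjusted p = 1.58e-15), a 2.15-fold lower signal. It was the one combination of receptor and cell type that was called, where "called" means an adjusted p under 0.05 and a difference of at least 1. In this comparison 17.2% of the tested genes were called in epidermis, 4.35% in cortex, 10.8% in endodermis and 6.92% in stele. Without the size requirement 54.2% of all gene and cell type combinations passed. The GID1A excess in endodermis (0.70, SE 0.10, adjusted p = 2.25e-08) and in cortex (0.39, adjusted p = 0.00131) passed, and the stele did not (0.02, adjusted p = 0.901). After quantile normalization the epidermal difference was -0.92, and after median centring of the arrays -0.94, which passed and were no longer called. Under these scalings cortex minus endodermis passed for GID1A (-0.31, adjusted p = 0.0383, and -0.34, adjusted p = 0.0202).

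GID1B was nearly even across the root. It averaged 8.19 ± 0.36 in epidermis, 8.43 ± 0.06 in cortex, 8.47 ± 0.16 in endodermis and 8.36 ± 0.24 in stele (SD, n = 6 each). None of its 6 pairwise differences in standard medium passed, with adjusted p from 0.0784 to 0.861. The largest of them, epidermis minus endodermis, was -0.28 with a 95% confidence interval that ran down to -0.57.

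GID1C was highest in endodermis. Its standard signals there were 4.98, 4.80 and 5.13 at 1 h and 5.13, 5.17 and 5.13 at 48 h. The 6 cortex arrays ran from 3.58 to 4.40 with a median of 4.14, all below every endodermis array. Stele arrays lay between 4.02 and 4.49, also below. Epidermis arrays spread from 3.48 to 5.57 and overlapped all other types, and their SD of 0.72 was the largest of any receptor in any cell type in standard medium.

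GID1C reached the group mean of 5 needed for testing in 6 of 32 groups, all of them endodermis, so it was tested only because it was high there. Its comparisons in standard medium are therefore given from a fit with no filter on dim genes, over all 13356 genes. In that fit GID1C in endodermis stood 0.81 above the mean of the other types (adjusted p = 4.76e-05). The cortex stood below the mean of the others by a difference of -0.49 (adjusted p = 0.0215), and epidermis and stele did not pass. In the filtered fit without replicate 2 of cortex at standard 1 h the cortex difference was -0.38 and did not pass (adjusted p = 0.0881). By pairs, the endodermis passed against cortex (cortex minus endodermis -0.97, adjusted p = 9.94e-05), stele (0.80, adjusted p = 0.00121) and epidermis (epidermis minus endodermis -0.65, adjusted p = 0.0061). The last of these was -0.41 in the filtered fit without replicate 3 of epidermis at standard 48 h, the array at 3.48 (adjusted p = 0.0664). No pair among the other 3 types passed (adjusted p 0.211 to 0.631). The GID1C signals of those types were mostly under the array median, where a log2 difference is compressed.

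The standard medium itself was sampled at both ends of the time course, and the receptors moved little between them. GID1A in endodermis rose by 0.59 from 1 to 48 h (adjusted p = 0.0235), a difference that lay between 0.47 and 0.75 with 1 array left out. It did not pass without replicate 1 at 1 h or without replicate 2 or 3 at 48 h. The other 11 combinations of receptor and cell type did not pass. In epidermis the GID1A means were 4.48 ± 0.34 at 1 h and 4.87 ± 0.02 at 48 h (n = 3, difference 0.38, limma adjusted p = 0.197). Over all genes 12.1% of such differences passed. Because standard samples exist at those times alone, each salt group was set against the mean of both standard groups of its cell type, and the 6 salt times of a cell type share these 6 reference arrays.

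The second question was how salt changes each receptor. GID1A rose in epidermis at every time sampled. The arrays read 5.79, 5.59 and 5.43 after 1 h, 5.83, 5.90 and 5.56 after 3 h, and 5.74, 5.50 and 5.92 after 8 h. They read 5.84, 5.84 and 6.16 after 20 h, 5.70, 6.05 and 5.78 after 32 h, and 5.54, 5.76 and 5.68 after 48 h. All 18 salt arrays thus lay above the brightest of the 6 standard arrays, which read 4.89.

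The epidermal increase of GID1A was 0.93 at 1 h, 1.09 at 3 h, 1.04 at 8 h, 1.27 at 20 h, 1.17 at 32 h and 0.98 at 48 h (SE 0.15 each). The adjusted p-values were 1.45e-06, 6.31e-09, 2.32e-08, 6.47e-11, 5.43e-10 and 5.65e-08. The change at 20 h corresponds to a 2.41-fold higher signal. GID1A was called at 3, 8, 20 and 32 h, and fell just short of the size requirement at 1 and 48 h. The 8 h call was lost without replicate 3 of standard 1 h (0.96) or replicate 3 of salt 8 h (0.94). The 1 h change reached 1.02 without replicate 2 of standard 1 h and 1.01 without replicate 3 of salt 1 h, and the 48 h change 1.07 and 1.04 without that standard array or replicate 1 of salt 48 h. Among all tested genes 7.72% were called in epidermis at 1 h, 22.5% at 3 h, 20.6% at 8 h, 24.2% at 20 h, 29.7% at 32 h and 30.4% at 48 h. Over the 6 times together 61.6% of gene comparisons in epidermis passed on the adjusted p alone.

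The increase was present in the first sample at 1 h. Among the 6 epidermal salt means of GID1A, from 5.60 to 5.95, no difference was detected (F test over the 6 times, range 0.34, adjusted p = 0.478). The size of the epidermal increase depended on the scaling and on the reference. The median tested gene also shifted by 0.07 to 0.16 in epidermis, and after each array was centred on its own median GID1A was called at 20 h alone. After quantile normalization it was called at no time, with changes of 0.82 at 3 h, 0.84 at 8 h, 1.00 at 20 h and 0.92 at 32 h, all with adjusted p of at most 5.24e-06. Against the standard 48 h arrays alone the changes at 3, 8 and 32 h were 0.90, 0.85 and 0.97. With arrays weighted by their quality the changes were 0.90 at 1 h (limma, adjusted p = 0.044), 1.08 at 3 h (adjusted p = 0.0023) and 1.28 at 20 h (adjusted p = 0.000145). The adjusted p-values were thus larger under these weights, at changes of similar size. Under all of these settings the change stayed positive and passed.

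**Figure D2:**
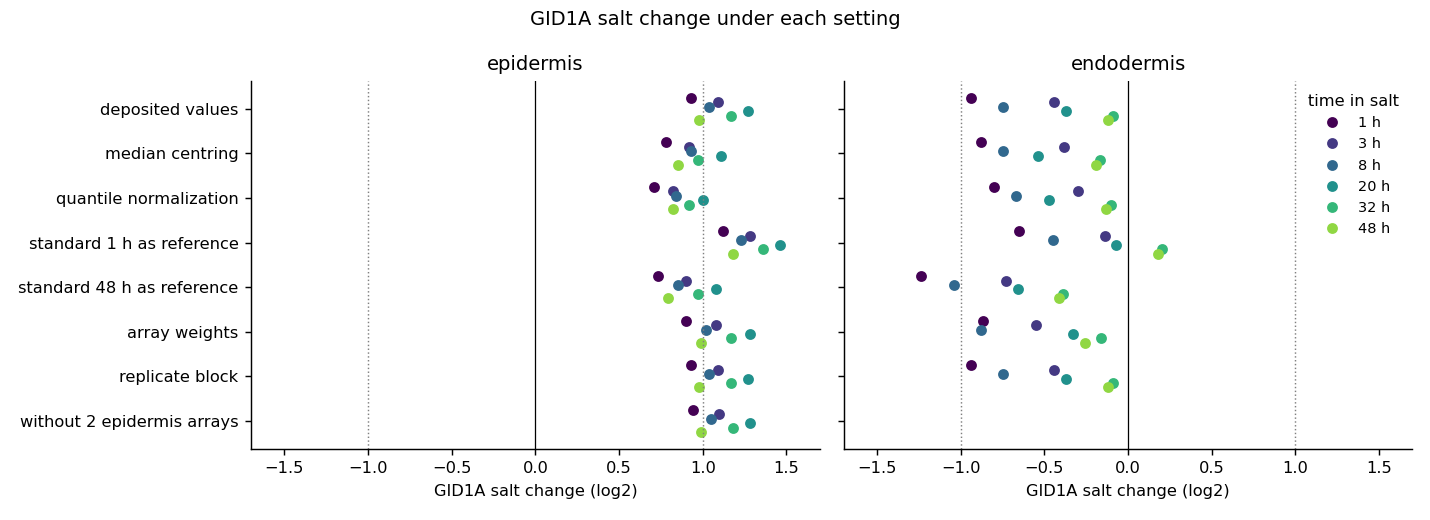
GID1A salt change (log2, horizontal axis) in epidermis and endodermis under each setting (vertical axis). Points are the 6 times, and dotted lines mark a change of 1 in either direction. The epidermal values stay above 0 in every setting but straddle the dotted line. The endodermal values at 1 and 8 h lie beyond the dotted line for a decrease when the standard 48 h arrays are the reference (-1.24 and -1.04).

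Markers listed for other cell types moved in the same comparison. The summed log2 signal of the 5 measured markers of other root cell types (of 21 listed) ran from 18.3 to 22.1 on the standard epidermis arrays and from 16.3 to 19.9 on the salt arrays. Some of these genes also moved in the type they mark. AT1G62510 averaged 10.34 on standard and 8.65 on salt arrays of cortex, LHW 4.54 and 5.49 in stele, and GSO1 10.32 and 10.39 in endodermis. In each of the 4 cell types such a sum therefore cannot tell fewer cells of other types from a salt change of the markers themselves. The 3′ minus 5′ difference of the GAPDH control probe sets, which grows as RNA degrades, overlapped between salt and standard epidermis arrays at all 6 times. At 1 h the ubiquitin control lay below all standard arrays (1.11 ± 0.01 against 1.27 ± 0.10), and at 48 h the actin control lay above them (3.93 ± 0.09 against 3.41 ± 0.26). The part of any of these in the GID1A values was not tested. Without the 2 epidermis arrays that correlated less with their group, GID1A was again called at 3, 8, 20 and 32 h, as the plot of settings shows.

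In endodermis GID1A fell, farthest at 1 and 8 h. The arrays read 4.91, 5.08 and 5.26 after 1 h of salt, all below the lowest standard array at 5.49. They read 5.65, 5.56 and 5.56 after 3 h, 5.69, 5.37 and 4.79 after 8 h, and 5.82, 5.47 and 5.69 after 20 h, where they overlapped the standard arrays. They read 5.88, 5.99 and 5.94 after 32 h and 6.11, 5.88 and 5.75 after 48 h, within the range of the standard arrays.

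The endodermal change of GID1A was -0.94 at 1 h (SE 0.15, adjusted p = 5.09e-07), -0.44 at 3 h (adjusted p = 0.012), -0.75 at 8 h (adjusted p = 2.67e-05) and -0.37 at 20 h (adjusted p = 0.0309). The 20 h value lay between -0.45 and -0.27 with 1 array left out and lost its pass in 6 of 9 such fits, and the 3 h value did not pass after quantile normalization (-0.30, adjusted p = 0.0847). It was -0.09 at 32 h and -0.12 at 48 h, neither of which passed (adjusted p = 0.622 and 0.519). The 48 h value passed against the standard 48 h arrays alone (-0.41, adjusted p = 0.0395) and with arrays weighted by their quality (-0.26, adjusted p = 0.0157). None was called, although the 1 h value was called without replicate 1 of standard 1 h (-1.01), replicate 1 of standard 48 h (-1.03) or replicate 3 of salt 1 h (-1.03). Among the tested genes 11.3%, 19.5%, 21%, 24.4%, 21.7% and 23.2% were called in endodermis at the 6 times in order. On the adjusted p alone 60.1% of gene comparisons in endodermis passed. The 6 endodermal salt means differed over time (range 0.85, adjusted p = 4.4e-05), and this was the one cell type in which GID1A passed that test.

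The reference mattered here too, since GID1A had itself risen in endodermis on standard medium. Against the standard 48 h arrays alone the decrease was called at 1 h (-1.24) and 8 h (-1.04). Against the standard 1 h arrays alone the decrease passed at 1 h (-0.65, adjusted p = 0.00226) and 8 h (-0.45, adjusted p = 0.028), and it did not pass at 3 h (-0.14, adjusted p = 0.525) or 20 h (-0.07, adjusted p = 0.736). The values at 32 and 48 h were 0.20 and 0.18 against that reference, and neither passed. The GAPDH 3′ minus 5′ difference was higher than on all standard endodermis arrays (0.48 ± 0.15) at 1 h (1.43 ± 0.07), 3 h (0.85 ± 0.04), 8 h (0.89 ± 0.21) and 48 h (0.71 ± 0.10). The ubiquitin control lay above all standard arrays at 1, 20 and 48 h. The summed signal of the 6 measured markers of other types (of 20 listed) was 36.9 to 41.6 on standard and 24.7 to 34.5 on salt arrays. Their part in the GID1A decrease was not tested.

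In cortex no GID1A change passed. The 18 cortex salt arrays ran from 5.32 to 6.18 with a median of 5.88, across the standard range of 5.50 to 6.12. The changes lay between -0.31 at 3 h (adjusted p = 0.1) and 0.22 at 20 h (adjusted p = 0.224). The summed signal of the 4 measured markers of other types (of 23 listed) was 29.9 to 31.3 on standard and 26.2 to 30.1 on salt arrays of cortex. The background of called genes in cortex was 10.1%, 7.36%, 16.6%, 22%, 24.9% and 20.9% at the 6 times, and 55% passed on the adjusted p alone.

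In stele the GID1A change was smaller. It was 0.02 after 1 h and did not pass (adjusted p = 0.917). From 3 h on the change lay between 0.37 and 0.46 (SE 0.15), and it passed at all 5 of these times (adjusted p from 0.00742 to 0.0386) without being called. The salt arrays of stele, 5.25 to 6.26, overlapped the standard arrays at every time. The summed signal of the 6 measured markers of other types (of 18 listed) was 40.9 to 45.3 on standard and 30.9 to 40.7 on salt arrays of stele, with no overlap, and its part in the GID1A values was not tested. The background in stele was 12.4%, 18.9%, 16.5%, 12%, 16.8% and 22.3% called, and 57.9% passed. The median tested gene in stele shifted by 0.08 to 0.14, and after median centring or quantile normalization the 3 h value alone passed (0.43, adjusted p = 0.0115, and 0.40, adjusted p = 0.0235). Leaving out single arrays took the adjusted p of each of the 5 values above 0.05 at least once. Without replicate 3 of stele at standard 1 h, the array that correlated least with its group, the values at 8, 20 and 32 h were 0.32 each and did not pass.

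**Figure D3:**
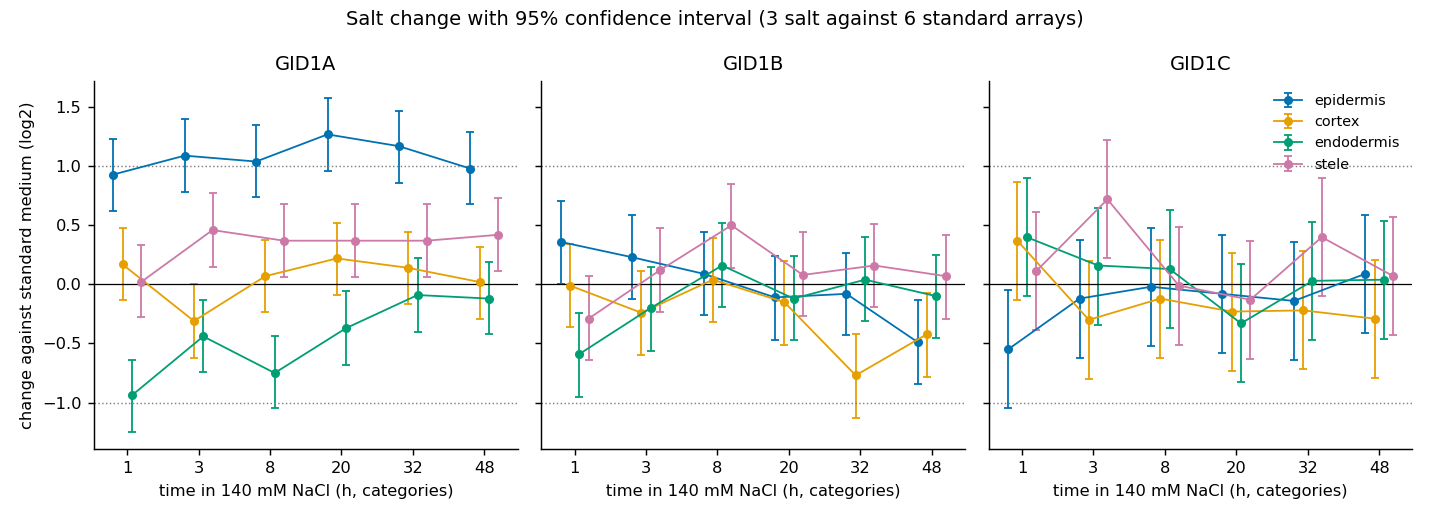
Change of each receptor against standard medium (log2, vertical axis) by time in 140 mM NaCl (horizontal axis, evenly spaced categories), one line per cell type. Bars are 95% confidence intervals of limma from 3 salt and 6 standard arrays, and dotted lines mark a change of 1. GID1A separates into an epidermal line from 0.93 to 1.27 and an endodermal line that starts at -0.94, while GID1B and GID1C stay between -0.77 and 0.72.

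The salt change of GID1A differed among the 4 cell types at every time. The range of the 4 changes was 1.87 at 1 h, 1.52 at 3 h, 1.79 at 8 h, 1.64 at 20 h, 1.26 at 32 h and 1.10 at 48 h. The moderated F test across the 4 types gave adjusted p-values of 4.86e-09, 1.18e-08, 3.79e-09, 6.13e-08, 9.59e-06 and 7.11e-05. A range of at least 1 that passed was found for 21.4%, 34.5%, 28.1%, 30.5%, 29.4% and 26.8% of the tested genes at these times, so a salt response that varies by cell type was common on these arrays.

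The difference was largest between epidermis and endodermis. The epidermal change minus the endodermal change was 1.87 at 1 h (SE 0.22, adjusted p = 6.57e-10) and 1.10 at 48 h (adjusted p = 5.5e-05), and it was called at all 6 times. Over all genes and times 14.1% of these differences were called. Epidermis minus cortex was called at 3 h (1.40), 20 h (1.06) and 32 h (1.03), against 9.17% over all genes. Epidermis minus stele passed at all 6 times (0.57 to 0.90) and was never called, against 11.2% over all genes.

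The GID1A levels of the cell types lay closer together in salt. In standard medium the 4 group means spanned 1.25 at 1 h and 1.45 at 48 h, from epidermis at the bottom to endodermis at the top. In salt they spanned 0.89 at 1 h, 0.49 at 3 h, 0.61 at 8 h, 0.36 at 20 h, 0.10 at 32 h and 0.28 at 48 h. The median tested gene spanned 0.78 and 0.72 in the standard conditions and 0.79 to 0.99 in salt. GID1A thus varied more between the cell types than the median gene in both standard conditions, and less than it at each salt time.

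After 48 h of salt none of the 6 pairs of cell types passed for GID1A (adjusted p 0.186 to 0.928), although 44.8% of such pairs passed over all genes. The means were 5.66 ± 0.11 in epidermis, 5.82 ± 0.07 in cortex, 5.91 ± 0.18 in endodermis and 5.94 ± 0.14 in stele (n = 3). The 95% confidence interval of epidermis minus endodermis was -0.61 to 0.10.

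**Figure D4:**
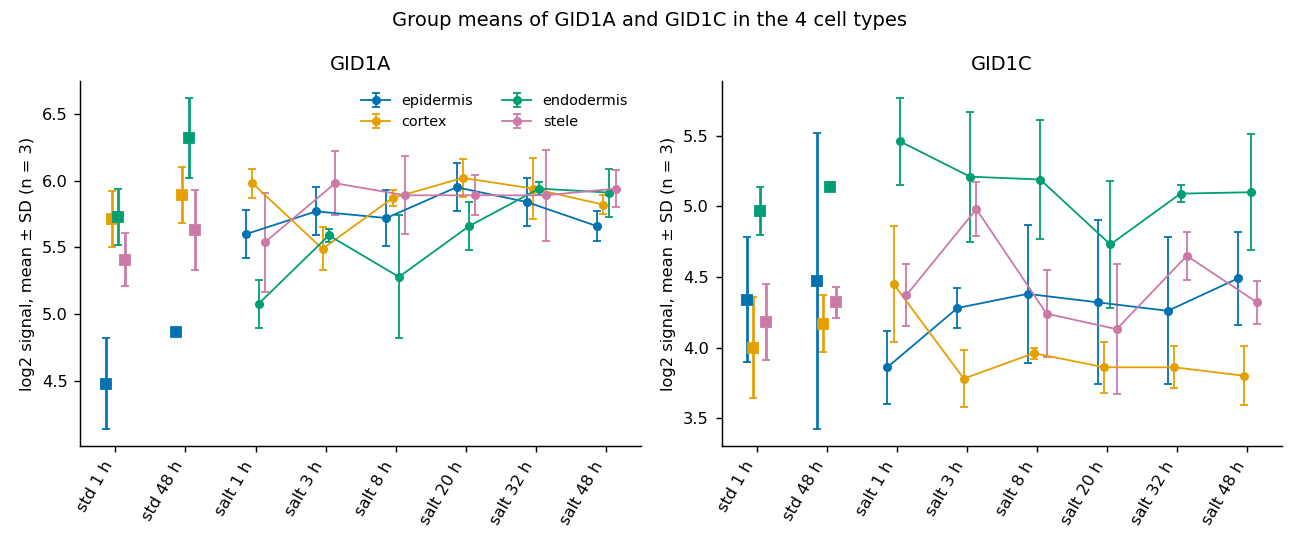
Group means of GID1A (left) and GID1C (right) as log2 signal with SD bars (n = 3) in the 8 conditions; squares are standard medium and joined circles are salt. For GID1A the 4 cell types span 1.45 in standard medium at 48 h and 0.10 to 0.89 in salt, while for GID1C the endodermis has the highest mean in all 8 conditions.

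GID1B was called in none of the 24 salt comparisons, against 19.0% over all tested genes. Of the 24, 5 passed, where 55% to 61.6% of all gene comparisons passed in the single cell types. The clearest of the 5 was a decrease in cortex after 32 h. The cortex arrays read 7.82, 7.65 and 7.51, all below the 6 standard arrays at 8.34 to 8.51, and the change was -0.77 (SE 0.18, adjusted p = 0.000121). After 48 h the cortex arrays read 7.86, 8.19 and 7.99, again all below (-0.42, adjusted p = 0.0343). At 8 and 20 h the cortical changes were 0.04 and -0.15, and neither passed. The actin 3′ minus 5′ difference lay above all standard cortex arrays at 32 h (4.22 ± 0.22 against 3.63 ± 0.19) and 48 h (3.96 ± 0.10), and its part in these values was not tested.

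In endodermis GID1B fell after 1 h, where the arrays read 8.14, 7.68 and 7.82 against 8.21 to 8.65 in standard medium (-0.59, adjusted p = 0.00423). GID1A also fell on these arrays, and the GAPDH 3′ minus 5′ difference was higher on them, as given above; its part was not tested. In epidermis GID1B fell after 48 h, where the arrays read 7.19, 7.98 and 7.94 (-0.49, adjusted p = 0.0127), overlapping a standard range of 7.49 to 8.43. In stele it rose after 8 h, where 8.86, 8.82 and 8.89 stood above all standard arrays, which reached 8.63 (0.50, adjusted p = 0.0135). The epidermal decrease was -0.23 without replicate 1 of salt 48 h, the array at 7.19, and did not pass (adjusted p = 0.318). The cortical value at 48 h was -0.34 without replicate 1 of salt 48 h (adjusted p = 0.153), and the stele value was 0.40 without replicate 3 of standard 1 h (adjusted p = 0.0512). The decreases in cortex at 32 h and in endodermis at 1 h passed in all fits with 1 array left out.

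GID1B moved over the course of the salt treatment in each cell type, with its highest and lowest means at different times. The F test over the 6 times passed in all 4, with ranges of 0.84 in epidermis (adjusted p = 0.00434), 0.81 in cortex (adjusted p = 0.00424), 0.76 in endodermis (adjusted p = 0.0188) and 0.78 in stele (adjusted p = 0.0314). None reached a range of 1. The epidermal test did not pass without replicate 1 of salt 48 h (range 0.58, adjusted p = 0.0806), and the endodermal and stelar tests did not pass after median centring (adjusted p = 0.0768 and 0.0843). The highest epidermal mean was at 1 h (8.54 ± 0.05) and the lowest at 48 h (7.70 ± 0.45), whereas the lowest endodermal and stelar means were at 1 h (7.88 ± 0.23 and 8.07 ± 0.36) and the highest at 8 h (8.63 ± 0.31 and 8.85 ± 0.04). In this test 64.4% of all gene and cell type combinations passed and 26.4% were called.

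The GID1B change differed among cell types at 1 h (range 0.95, adjusted p = 0.0092) and at 32 h (range 0.93, adjusted p = 0.00485), and did not pass at the other 4 times. After median centring the 1 h range was 0.74 and did not pass (adjusted p = 0.0811). After 48 h of salt the epidermal GID1B level was below that of endodermis by a difference of -0.67 (adjusted p = 0.00375) and below that of stele by one of -0.72 (adjusted p = 0.00227). Neither pair had passed in standard medium. Tested directly, the 48 h salt change in epidermis did not differ from that in endodermis (-0.39, limma, adjusted p = 0.244) or stele (-0.55, adjusted p = 0.0841). The epidermal level at 48 h includes the array at 7.19. The 4 means of GID1B spanned 0.38 and 0.21 in standard medium and 0.29 to 0.85 in salt.

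GID1C passed in 1 of the 24 salt comparisons, where 55% to 61.6% of all gene comparisons passed in the single cell types. It was called in none, against 19.0% over all tested genes. In stele after 3 h its arrays read 4.90, 4.84 and 5.19, all above the standard arrays at 4.02 to 4.49, and it rose by 0.72 (SE 0.25, adjusted p = 0.00994). Without replicate 3, the array at 5.19, the change was 0.62 and did not pass (adjusted p = 0.0635). At 1 h and at 8 h in stele the changes were 0.11 and -0.01, and the 3 arrays at 32 h (4.59, 4.52 and 4.85) also lay above all standard arrays without passing (0.40, adjusted p = 0.162). In epidermis after 1 h the arrays read 3.64, 3.79 and 4.14, a change of -0.55 that did not pass (adjusted p = 0.0692). It ran from -0.27 (without replicate 1 of standard 48 h, adjusted p = 0.365) to -0.79 (without replicate 3 of standard 48 h, adjusted p = 0.00501) with 1 array left out. It also passed without replicate 1 of standard 1 h (-0.63, adjusted p = 0.0405) or replicate 3 of salt 1 h (-0.69, adjusted p = 0.0476), after quantile normalization (-0.68, adjusted p = 0.0399) and after median centring (-0.70, adjusted p = 0.0324). At a standard error of 0.25 the confidence interval of each GID1C change reached 0.50 to either side, so changes of that size were not detectable.

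The endodermis had the highest GID1C mean in all 8 conditions, from 4.73 ± 0.45 at 20 h of salt to 5.46 ± 0.31 at 1 h. Its 18 salt arrays ran from 4.22 to 5.77 with a median of 5.10, against a median of 5.13 on the 6 standard arrays, and no endodermal GID1C change passed (-0.33 to 0.40). After 48 h of salt cortex minus endodermis was -1.30, endodermis minus stele 0.78 and epidermis minus endodermis -0.61. These are given without a test, since endodermis at 48 h is among the groups through which GID1C entered the fit. The 4 GID1C means spanned 0.97 in each standard condition and 0.88 to 1.60 in salt. The range of the GID1C changes among cell types at 3 h was 1.03 (moderated F test, adjusted p = 0.0425). Endodermis at 3 h is also among the groups through which GID1C entered the fit, so no difference is read from this test. The call was lost in 14 of 36 fits with 1 array left out, with adjusted p up to 0.133. It was also lost with no filter on dim genes.

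The receptors were next compared with each other within arrays, where the scaling of an array cancels. GID1A minus GID1B averaged -3.51 ± 0.36 on the 6 standard and -2.43 ± 0.44 on the 18 salt arrays of epidermis. This is a shift of 1.08 towards GID1A, and 17 of 18 salt arrays lay above all standard arrays (exact two-sided permutation test over 134596 arrangements, adjusted p = 0.000357 over 12 tests). GID1A minus GID1C shifted by 1.22 in epidermis, with 9 of 18 salt arrays above all standard arrays (exact permutation test, adjusted p = 0.00232). GID1C lay above the array median on 6 of 24 epidermis arrays, so its differences, and the second of these shifts, are read from a compressed part of the scale. The permutation tests shuffled single arrays, as if each were an independent sample of its medium. The arrays form groups by time, and separate cultures within a group are not established. The p-values of these tests may therefore be too small, and they describe these arrays alone. Shuffling whole groups was not tested.

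The other 10 tests of that kind did not pass (exact permutation tests, adjusted p 0.0991 to 0.689). They pool all 6 salt times, so a change at 1 time carries little weight in them. In endodermis GID1A minus GID1B shifted by -0.32 and GID1A minus GID1C by -0.52. In stele GID1A minus GID1B shifted by 0.23, with 11 of 18 salt arrays above all standard arrays. GID1B minus GID1C shifted by -0.21 to 0.14 in the 4 cell types.

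Across the 32 group means the receptors showed little common pattern. Pearson's r was 0.25 for GID1A with GID1B, -0.08 for GID1A with GID1C and 0.14 for GID1B with GID1C, and 0.22, -0.04 and -0.09 after each cell type's mean was subtracted. These are descriptions over groups that share reporter lines and array scaling, and the median tested gene reached 0.08 with GID1A. The genes most like GID1A were AT2G28310 (0.76), CBL, or AT3G57050, an enzyme of methionine synthesis (0.76), and AT4G16830 (0.75). With the cell type means removed they were AT5G57655 (0.83), AT5G11580 (0.82) and AT4G27900 (0.80).

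The genes most like GID1B were AT1G27000 (0.67), AT4G34480 (0.64) and AT2G44770 (0.63), and with the cell type means removed AT1G54920 (0.72), AARE (0.72) and AT4G34480 (0.71). For GID1C they were AT4G22530 (0.89), AT1G02020 (0.87) and AT5G23680 (0.87). These values fell to 0.66 for AT2G14520, 0.65 for AT5G03490 and 0.65 for AT5G23680, the closest genes once cell type means were removed. The likeness to GID1C thus lay to a large extent in the levels of the cell types. No gene was among the 3 most alike of more than 1 receptor.

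The rest of the pathway could be read in part. Of 58 listed genes of gibberellin metabolism, signalling, transport and response, 17 had a single-gene probe set and 10 were bright enough to test. The genes of synthesis (14 listed), inactivation (11) and the DELLA proteins (5) were not analysed here. Thus the hormone's own supply and its direct repressors do not enter this account. Of the 10 tested genes between 0 and 4 were called higher and 0 or 1 lower in any single salt comparison, where 7.36% to 30.4% of all tested genes were called. Over the 24 comparisons together 51 of 240 values were called, or 21.2%, against 19.0% over all tested genes, and so near the background. The median change of the 10 genes lay between -0.46 and 0.64 where that of all tested genes lay between -0.03 and 0.16.

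Among signalling genes SPY, an O-fucosyltransferase that modifies DELLA proteins and is known as a negative regulator of gibberellin responses, rose in all 4 cell types and farthest in epidermis. Its mean went from 5.29 ± 0.15 in standard medium (n = 6) to 6.44 ± 0.18 at 3 h, 6.31 ± 0.17 at 20 h and 6.29 ± 0.13 at 32 h (n = 3 each). The change at 3 h was 1.15 (SE 0.11, adjusted p = 1.19e-13), and these 3 comparisons were the ones called for SPY. SPY also passed with an increase at all 6 times in stele (0.33 to 0.65), at 3, 20, 32 and 48 h in endodermis (0.46 to 0.66) and at 1, 8, 20 and 32 h in cortex (0.37 to 0.43). After median centring SPY was called at none of them, with changes of 0.98, 0.87 and 0.80.

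XERICO, a RING-type protein gene known as a target repressed by gibberellin through DELLA proteins and as a promoter of abscisic acid accumulation, moved in opposite directions in these cell types. In epidermis it was called higher at 8 h (1.07, adjusted p = 7.31e-11) and 20 h (1.02), which became 0.96 and 0.86 and were no longer called after median centring. In endodermis it was called lower from 3 to 48 h, from a standard mean of 9.66 ± 0.22 to 7.87 ± 0.20 at 8 h (-1.79, SE 0.13, adjusted p = 8.34e-20) and 8.44 ± 0.17 at 48 h (-1.22). In cortex it was called lower at 48 h (-1.08), and after median centring also at 20 h (-1.06) and 32 h (-1.08).

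SEC, a relative of SPY that transfers N-acetylglucosamine to DELLA proteins, was called nowhere, and its farthest change was -0.90 in endodermis at 20 h (adjusted p = 2.05e-10), which median centring took to -1.08 and a call. SLY1, the F-box protein that acts directly below the receptors, was also called nowhere. Its farthest change was -0.86 in endodermis at 3 h (adjusted p = 2.1e-09). SLY1 is given because it completes the 4 tested signalling genes.

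Among transporters able to carry gibberellin, NPF3.1 (AT1G68570), an importer known from the endodermis, showed the farthest change of the pathway. It went from 3.71 ± 0.16 to 7.17 ± 0.48 in endodermis after 1 h (a change of 3.47) and from 3.76 ± 0.34 to 6.79 ± 0.54 in cortex after 1 h (a change of 3.03). After 3 h neither was called, and at 20 h the change in endodermis was 1.34. NPF3.1 was bright enough to test through these 3 salt groups alone, so it had to differ in them, and its values there are a description. The standard level of NPF3.1 lay under the array medians, where log2 differences are compressed. NPF2.10 (GTR1), a glucosinolate transporter that also moves gibberellin, was called higher in 7 comparisons, 4 of them in epidermis (1.45 at 3 h, adjusted p = 2.45e-11) and 2 in stele (1.46 at 3 h). After median centring its epidermal calls at 8 h (0.95) and 32 h (0.84) and its endodermal call (0.94) were lost, and it was called lower in cortex at 32 h (-1.03). SWEET14, a sugar and gibberellin transporter, was bright enough to test in 1 group alone, stele after 8 h of salt, so it had to be higher there. Its mean in that group was 5.51, a change of 2.32 given as a description.

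The 3 tested genes of the GASA family, small cysteine-rich peptides of which several respond to gibberellin, did not move as one. GASA10 (AT5G59845) was called higher in 14 comparisons, in cortex from 3 to 48 h (2.36 at 48 h), in endodermis from 3 to 20 h (2.02 at 3 h) and in stele at all 6 times (2.54 at 8 h, SE 0.28, adjusted p = 5.12e-12), and in none of the 6 epidermal comparisons. Its standard arrays in stele spread with an SD of 1.52, and the salt arrays overlapped them at 5 of the 6 times. GASA10 reached a group mean of 5 in 16 of 32 groups, none of them epidermis, and GASA11 in 10, all of endodermis or stele. GASA11 (AT2G18420) was called higher in 4 comparisons, in endodermis at 1, 3 and 8 h (2.67 at 3 h, adjusted p = 8.58e-18) and in stele at 3 h (1.60). GASA7 (AT2G14900) was called lower in 6, among them stele at 3 h (-1.80, adjusted p = 5.82e-13) and cortex at 32 h (-1.71), and higher in endodermis at 32 h (1.08).

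**Figure D5:**
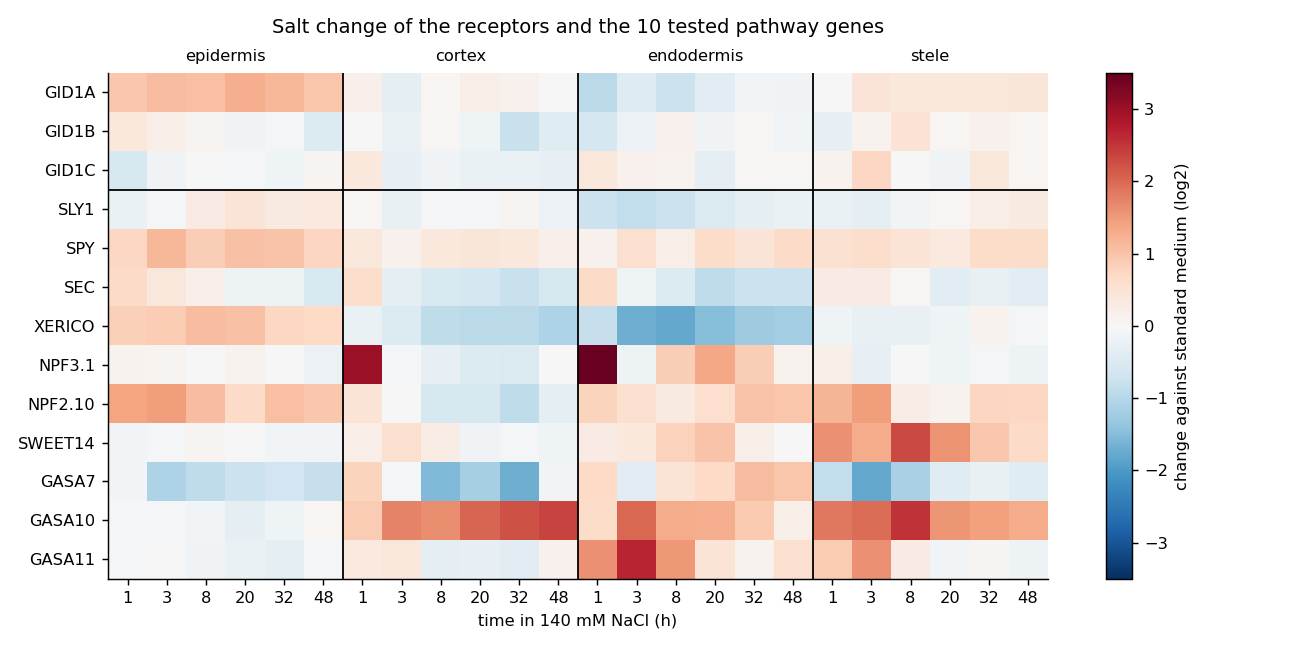
Change against standard medium (log2, colour scale from -3.5 to 3.5) of the 3 receptors (above the line) and the 10 tested pathway genes in the 24 salt comparisons, ordered by cell type and time in 140 mM NaCl (h, horizontal axis). SPY is red across epidermis and paler elsewhere (1.15 at 3 h in epidermis, at most 0.66 in the other types), XERICO is blue across endodermis (-1.79 at 8 h), and NPF3.1 is dark at 1 h in cortex and endodermis (3.03 and 3.47).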

How the data were processed

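Total RNA from sorted protoplasts was labelled by one-cycle amplification and hybridised to ATH1 arrays, per the labels' protocols. The log2 values were deposited by the authors in 1 table of 96 columns and 22810 probe sets. Affymetrix Expression Console and GCRMA, a method that corrects background by probe sequence and compresses low signals, are named per the submitters' processing notes, and their versions were not given in the sources used here. The table names no genome build. Of the probe sets, 64 were controls, 13513 were paired with 1 gene, 503 with several and 8730 were not listed in the annotation used. Of the 13356 genes so named 13286 matched RefSeq. A gene with several probe sets was represented by the one with the highest mean.

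Genes whose highest group mean reached 5 (7281) were fitted with limma 3.58.1 in R 4.3.3 with 1 mean per group over all 96 arrays (64 residual degrees of freedom), contrasts and eBayes, without covariates. Each test was two-sided, with p-values adjusted (Benjamini-Hochberg) over the 7281 genes of its comparison. Exact permutation tests used Python 3.11.15 and scipy 1.17.1. Both were tested on simulated data. The number of arrays limits the precision.

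The receptors, the pathway and marker lists and the tests were chosen with earlier results of these data known. Named pathway genes are the 3 of each list called in the most of 24 salt comparisons, and the genes alike a receptor are the 3 with the highest r. Replicate numbers in the labels did not consistently pair the arrays. Deviations of arrays with the same number correlated at -0.47 to 0.61, with medians from -0.02 to 0.03 in the 4 cell types. Of 84 correlations in each cell type, those over 0.1 numbered 34 in epidermis, 7 in cortex, 16 in endodermis and 30 in stele. Alternatives were the reference group, the scaling, the dim-gene filter, array weights, the replicate block, fits within a cell type and leaving out each array.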

Additional observations from a re-analysis of the deposited data

Results flagged for a closer look

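The salt change of GID1A differed among the 4 cell types at all 6 times by the moderated F test, with ranges of 1.87, 1.52, 1.79, 1.64, 1.26 and 1.10 at 1, 3, 8, 20, 32 and 48 h. That of GID1C had a range of 1.03 at 3 h, where the stele change was 0.72 and the cortex change -0.30. This call was lost in 14 of 36 fits with 1 array left out and with no filter on dim genes. GID1C entered the fit through endodermis groups alone, that at 3 h of salt included, so no difference is read from it.

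One array stood apart from its group. On replicate 1 of epidermis at standard 1 h the GID1B signal was 7.49, and the nearest of the other 5 standard epidermis arrays read 8.17, a gap of 0.72 of the group's whole range. In this way 12 groups of 6 standard arrays were looked at, each from both standard times. Chance alone would flag about 1 of 20 such groups. Without this array the GID1B change in epidermis at 48 h was -0.63, where it was -0.49 with it.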

How the results depend on the processing

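With 4 of 24 salt comparisons of GID1A called as reported, quantile normalization left 0 and median centring left 1, because changes fell under the size requirement. In epidermis at 3, 8, 20 and 32 h they were 0.82, 0.84, 1.00 (short of 1 before rounding) and 0.92 after quantile normalization. After median centring those at 3, 8 and 32 h were 0.92, 0.93 and 0.97. The adjusted p-values of the epidermal changes stayed under 0.05. Over all tested genes 19.0% of salt comparisons were called. On the adjusted p alone the counts were 15 for GID1A, 5 for GID1B and 1 for GID1C. Of all gene comparisons 55% to 61.6% passed in the single cell types. The number of GID1A calls was 6 against the standard 1 h arrays alone, all of them epidermal increases. Against the standard 48 h arrays alone the number was 3, namely the epidermal increase at 20 h (1.08) and the endodermal decreases at 1 h (-1.24) and 8 h (-1.04). The number of GID1A calls was 3 to 6 with 1 array left out, and GID1B was called in 0 comparisons in each of these fits. With the replicate number as a block (replicate block) GID1A was again called in 4, and the epidermal change at 20 h was 1.27 (adjusted p = 2.61e-10). The block changed 1 call, that of GID1C in cortex minus endodermis in standard medium, which became -1.03. This pair was also called after quantile normalization and median centring (-1.09 each) and in 4 of 12 fits with 1 array left out. All of these fits used the filter that GID1C passed through endodermis groups alone, so no difference is read from these calls. In the fit with no filter on dim genes the value was -0.97 and was not called. Under quantile normalization the range of GID1A among cell types at 48 h was 0.95 and no longer called. With no filter on dim genes the GID1C range at 3 h was no longer called. The GID1A changes with single arrays left out ran from 0.83 to 1.36 over the 6 epidermal times and from -1.03 to -0.03 over the 6 endodermal times. Over the 10 pathway genes 51 of 240 salt changes were called as reported (21.2%, against 19.0% over all tested genes), 47 after median centring and 51 with no filter. No called value changed sign in any of these fits. A filter at a group mean of 7 left GID1B alone to test, and no receptor has a second single-gene probe set to try. Leaving out the 2 epidermis arrays that correlated less with their group was chosen after seeing the data. The low GID1C signal, above the array median on 32 of 96 arrays, limits what can be seen of that gene.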

Other observations

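The array-to-array spread of the receptors differed by cell type. The pooled SD of GID1B within groups was 0.09 in cortex, against 0.35 in epidermis, 0.27 in endodermis and 0.24 in stele, and that of GID1C was 0.54 in epidermis and 0.25 in cortex. The GID1B decrease in cortex at 32 h, -0.77 in size, thus stood against the smallest spread of the set, although the shared fit gave it the same standard error (0.18) as in the other cell types.

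At both ends of the salt course the GID1A change in epidermis stood close to the call, at 1 h (0.93) and at 48 h (0.98). Against the standard 1 h arrays alone these were 1.12 and 1.18, and against the standard 48 h arrays alone 0.73 and 0.79. The reference of the same time thus gave 1.12 at 1 h and 0.79 at 48 h. The standard epidermis arrays at 48 h agreed closely for GID1A (4.85 to 4.89) although 2 of the 3 correlated less with their group over the tested genes, and the same 3 arrays spread from 3.48 to 5.57 for GID1C.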
